A study of Homo sapiens with 20 samples.

Results

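The genes of HLA class I antigen presentation were examined in HL60, a human acute myeloid leukaemia cell line with promyelocytic features. The set was chosen by gene symbol and held 9 genes of 28051 named genes in the RNA data, together with the 5 of 8286 ATAC regions that listed one of them. The knockout cells came from a lentiviral CRISPR vector that also carried Cas9. Cells labelled HK3-null, in which the hexokinase 3 gene HK3 had been targeted, and Cas9 expressing control cells were each kept for 36 h in 1 µM all-trans retinoic acid (ATRA), which drives HL60 toward neutrophils, or in 0.01% DMSO, the diluent. RNA was sequenced in 12 libraries, 3 for each of the 4 groups, and chromatin accessibility was assayed by ATAC-seq in 8 libraries, 2 for each group. The sample titles of the knockout libraries all carried the same knockout code and named neither HK3 nor a clone. The label HK3-null is used here after the paper, whose methods describe single-clone populations. A difference between the genotypes therefore cannot be told apart from a difference between 2 clones of HL60. The paper describes 2 to 3 biological replicates per condition. Nothing in the labels tied replicate numbers to separate cultures, and p-values measured the spread between these libraries.

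For its knockouts the paper reports INDELs where Cas9 cuts, read by Sanger sequencing. Its mass spectrometry of pooled HL60 HK3 knockout clones counted no HK3 spectra after vitamin D treatment, whereas control cells had them. HK3 RNA showed no drop under the HK3-null label here. It was counted at 90, 65 and 105 in the Cas9 control DMSO libraries and at 344, 302 and 346 in those labelled HK3-null, and in ATRA at 1305, 1298 and 1850 against 1384, 1285 and 1975. HK3 RNA was thus higher in the DMSO libraries labelled HK3-null (log2 difference 1.96 ± 0.21 SE, adjusted p = 1.11e-05) and did not differ beyond the spread in ATRA (adjusted p = 0.836); an edit that leaves the RNA in place would not be seen in this check. Normalized totals lay between 29053838 and 31548189 per RNA library. Cas9 control DMSO replicate 1 stood apart, with 16750 genes detected where the remaining 11 libraries had 15031 to 15801, and the number of class I genes that passed was the same without it in every RNA comparison. All 12 myeloid markers were detected, with a summed level of 584262 to 909879 normalized counts. The T cell list reached 6039 to 13816, with 1 of its 7 genes at a mean of 10 or more and TRAT1 at 0. The B cell list summed to 49 to 108 in Cas9 control and 148 to 194 in HK3-null libraries, with 2 of 5 genes at a mean of 10 or more and MS4A1 at 0. The NK cell list, with 1 of 5 such genes, summed to 212 to 313 in Cas9 control libraries, 418 to 440 in HK3-null DMSO and 1133 to 1241 in HK3-null ATRA libraries. The dendritic list summed to 790 to 1317 with 1 of 5 such genes. The fibroblast and epithelial list, with 4 of 5 such genes, summed to 465 in Cas9 control DMSO replicate 1 and to at most 97 in the other 11 libraries. The part of these lists in the results was not tested. In such bulk samples, fewer cells of a type and less RNA per cell cannot be told apart.

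Class I molecules display peptides from inside the cell to CD8 T cells and natural killer cells. Each holds a heavy chain (HLA-B and HLA-C among the classical ones, HLA-E and HLA-F among the non-classical ones) and the light chain beta-2-microglobulin, B2M. Peptides cut by the proteasome are pumped into the endoplasmic reticulum by the transporter TAP1-TAP2, and tapasin, the product of TAPBP, holds empty heavy chains beside that pump. NLRC5 is the transactivator of class I genes, acting through the SXY promoter module, while interferons raise the same genes through ISRE sites. On the annotation used here (GRCh38), HLA-F, HLA-E, HLA-C, HLA-B, TAP2, TAP1 and TAPBP lie in this order on chromosome 6, HLA-F starting at base 29723434 and TAPBP ending at base 33314078. B2M lies on chromosome 15, at bases 44711517 to 44718145, and NLRC5 on chromosome 16, at bases 56989557 to 57083520.

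Promoters from RefSeq (GRCh38.p14) were matched for 7 of the 9 genes, all but HLA-E and NLRC5. The 250 bases before the start site are shown for genes that moved in opposite directions between the genotypes: HLA-B on the minus strand at chr6:31357180-31357429, B2M on the plus strand at chr15:44711267-44711516, TAP1 on the minus strand at chr6:32853705-32853954 and TAP2 on the minus strand at chr6:32838740-32838989. Capitals mark matches, on either strand, to the ISRE (GAAA and GAAA with any 2 bases between them), the GAS element (TTCNNNGAA), the CCAAT box (CCAAT), the CRE core (TGACG), the NF-kB site of class I enhancer A or the general NF-kB site. 2 neighbouring ISRE matches overlap in B2M and in TAP1.
HLA-B: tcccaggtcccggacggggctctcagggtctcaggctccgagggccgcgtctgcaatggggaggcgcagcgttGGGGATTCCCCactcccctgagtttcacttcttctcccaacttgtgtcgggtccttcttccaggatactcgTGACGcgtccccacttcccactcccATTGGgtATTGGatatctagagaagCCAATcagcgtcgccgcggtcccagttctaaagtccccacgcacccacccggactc
B2M: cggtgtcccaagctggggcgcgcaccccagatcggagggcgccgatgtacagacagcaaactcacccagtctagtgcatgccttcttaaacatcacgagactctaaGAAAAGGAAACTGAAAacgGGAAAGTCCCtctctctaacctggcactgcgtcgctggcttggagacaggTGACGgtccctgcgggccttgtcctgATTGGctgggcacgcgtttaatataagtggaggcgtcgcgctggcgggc
TAP1: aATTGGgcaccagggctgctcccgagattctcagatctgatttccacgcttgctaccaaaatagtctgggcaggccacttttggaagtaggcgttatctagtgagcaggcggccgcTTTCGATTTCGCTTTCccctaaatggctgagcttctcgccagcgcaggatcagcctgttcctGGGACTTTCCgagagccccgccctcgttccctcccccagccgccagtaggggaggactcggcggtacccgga
TAP2: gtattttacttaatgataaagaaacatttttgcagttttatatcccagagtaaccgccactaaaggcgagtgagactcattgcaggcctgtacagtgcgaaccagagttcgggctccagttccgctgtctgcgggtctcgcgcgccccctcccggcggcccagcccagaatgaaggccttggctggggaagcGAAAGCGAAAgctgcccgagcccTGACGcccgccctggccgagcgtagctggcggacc

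The ISRE letters were present in 5 of the 7 class I promoters (HLA-F, B2M, TAP1, TAP2 and TAPBP), against 2.47% of the 9707 promoters of tested genes and 3.07% of all 27305. CCAAT was present in 5 of 7 against 35.3% of tested genes, and TGACG in 4 of 7 against 29.8%. HLA-B carried the enhancer A site, which 0.0515% of tested promoters held, with TGACG and 3 CCAAT matches between it and the start site. TAP1 and B2M carried the general NF-kB site (0.494%). No promoter of the 7 held the GAS letters in this window (5.79% of tested genes did). Of the 5 genes with the ISRE letters, HLA-F and TAPBP had higher RNA in the HK3-null-labelled libraries and B2M, TAP1 and TAP2 lower. HLA-B and HLA-C, without these exact letters, had higher RNA. Other forms of the ISRE were not searched for, so a promoter without the letters may still hold such a site. The TAP1 start site is 488 bases from that of PSMB9, an immunoproteasome gene on the other strand that shares its control region with TAP1.

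All 4 heavy chain genes had more RNA in HK3-null than in Cas9 control libraries, HLA-E by the widest margin. HLA-B was counted at 15596, 15874 and 15951 in Cas9 control DMSO libraries and at 27362, 28633 and 27198 in HK3-null DMSO libraries. In ATRA, HLA-B reached 28681, 30021 and 29057 in the control and 58978, 60855 and 54584 in HK3-null libraries. No group overlapped another, although HK3-null cells in DMSO came close to control cells in ATRA. The HK3-null mean was 1.75 times the control mean in DMSO (log2 difference 0.81 ± 0.048 SE, adjusted p = 9.89e-08) and 1.99 times in ATRA (0.99, adjusted p = 2.12e-08).

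HLA-C followed the same steps. It was counted at 8500, 8122 and 8658 against 16846, 16840 and 16401 in DMSO, and at 16018, 15968 and 16100 against 37620, 36561 and 33907 in ATRA. The genotypes did not overlap, with ratios of 1.98 in DMSO (log2 difference 0.99 ± 0.046 SE, adjusted p = 1.84e-08) and 2.25 in ATRA (1.17, adjusted p = 5.07e-09). HLA-E, whose product presents leader peptides of other class I chains to natural killer cell receptors, had the largest genotype difference of the set. Its counts in DMSO were 2528, 2744 and 2808 in the control and 7482, 7611 and 7101 in HK3-null libraries, and in ATRA 7275, 7392 and 7761 against 18972, 19080 and 17212. The HK3-null means were 2.75 times (log2 difference 1.46 ± 0.057 SE, adjusted p = 4.6e-09) and 2.46 times (1.30, adjusted p = 1.11e-08) the control means.

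HLA-F, a mostly intracellular chain, was near the bottom of the measured range. It was counted at 26, 22 and 18 against 37, 53 and 27 in DMSO, and at 40, 36 and 45 against 79, 65 and 83 in ATRA. The groups did not overlap, but the lowest HK3-null DMSO library (27) was next to the highest control (26). The log2 differences were 0.79 ± 0.26 SE in DMSO (adjusted p = 0.0229) and 0.91 in ATRA (adjusted p = 0.0103). The DMSO call did not hold without Cas9 control DMSO replicate 3 (adjusted p = 0.0798), without HK3-null DMSO replicate 1 (0.0506) or without HK3-null DMSO replicate 2 (0.101).

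B2M moved the other way. The light chain gene had 43478, 46754 and 41988 counts in Cas9 control DMSO libraries and 24669, 26066 and 24270 in those labelled HK3-null. In ATRA the counts were 63868, 62242 and 59793 against 38261, 38632 and 35276. Every HK3-null library, ATRA included, lay below every Cas9 control library, so the 2 genotypes did not overlap under either treatment. The HK3-null mean was 0.567 of the control in DMSO (log2 difference -0.82 ± 0.057 SE, adjusted p = 3.6e-07) and 0.603 in ATRA (-0.73, adjusted p = 7.61e-07).

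**Figure D1:**
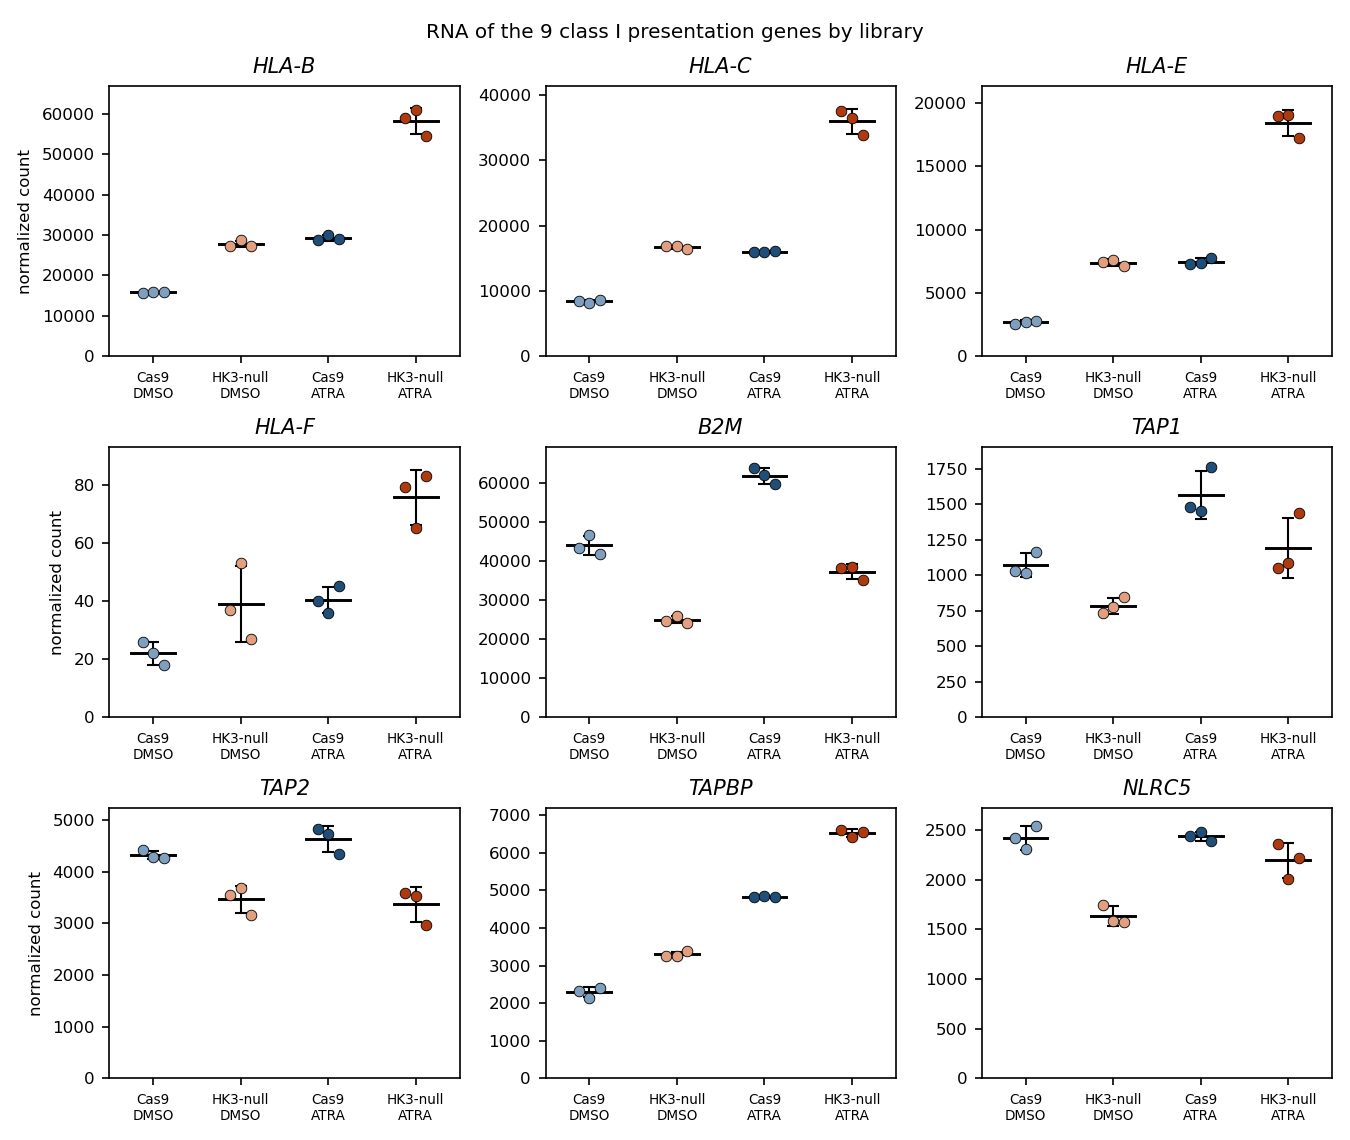
Normalized RNA counts of the 9 class I presentation genes in each library (points, 3 per group), with the group mean (bar) and SD (whiskers); each vertical axis starts at 0. HLA-B, HLA-C, HLA-E, HLA-F and TAPBP are higher in HK3-null than in Cas9 control libraries of the same treatment, whereas B2M, TAP1, TAP2 and NLRC5 are lower.

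The peptide transporter fell and its heavy chain tether rose. TAP1 was counted at 1034, 1016 and 1167 in Cas9 control and 735, 774 and 846 in HK3-null DMSO libraries, and at 1482, 1451 and 1762 against 1051, 1087 and 1439 in ATRA. In both treatments all HK3-null libraries lay below all controls, although HK3-null ATRA replicate 3 (1439) came close to the lowest control (1451). TAP1 fell by 0.45 on the log2 scale in DMSO (SE 0.12, adjusted p = 0.00873) and by 0.40 in ATRA (adjusted p = 0.0145). The ATRA call did not hold without Cas9 control ATRA replicate 3 (adjusted p = 0.0585), HK3-null ATRA replicate 1 (0.0616) or HK3-null ATRA replicate 2 (0.0573).

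TAP2, the other subunit of the transporter, had 4417, 4285 and 4262 counts in Cas9 control and 3540, 3683 and 3167 in HK3-null DMSO libraries. In ATRA the counts were 4816, 4735 and 4341 against 3589, 3530 and 2971. The genotypes did not overlap, and the HK3-null means were 0.802 of the control in DMSO (log2 difference -0.32 ± 0.08 SE, adjusted p = 0.00513) and 0.726 in ATRA (-0.46, adjusted p = 0.000389). TAPBP had 2330, 2145 and 2392 counts against 3261, 3264 and 3381 in DMSO, and 4813, 4855 and 4835 against 6620, 6427 and 6544 in ATRA. It rose by a factor of 1.44 in DMSO (log2 difference 0.53 ± 0.047 SE, adjusted p = 2.43e-06) and 1.35 in ATRA (0.43, adjusted p = 1.03e-05).

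NLRC5, the transactivator, was lower in HK3-null libraries in DMSO, with 2417, 2306 and 2543 against 1750, 1583 and 1570 counts (log2 difference -0.57 ± 0.068 SE, adjusted p = 2.89e-05). In ATRA it stood at 2441, 2479 and 2394 against 2357, 2011 and 2224. These libraries still did not overlap, but the log2 difference of -0.15 missed the threshold (adjusted p = 0.0737). With the replicate number as a block it passed (adjusted p = 0.0282).

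In DMSO, 9 of the 9 genes thus passed the test, 5 higher and 4 lower, where 55.0% of the 13256 tested genes passed (27.9% higher and 27.1% lower). In ATRA 8 of 9 passed, 5 higher and 3 lower, against 59.1% of all genes (29.6% higher, 29.5% lower). Libraries of the 2 genotypes did not overlap for 9 of 9 genes in each treatment, a state shared by 63.8% of tested genes in DMSO and 63.4% in ATRA. At a fold change of 2 or more as well, HLA-E was called higher in DMSO (11.1% of genes were) and HLA-C and HLA-E in ATRA (11.4%). The median log2 difference of the 9 genes was 0.53 in DMSO and 0.43 in ATRA, beside medians over all tested genes of 0.0026 and 0.0092. The members were read against a background in which more than 1 gene in 2 passed.

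Levels between genes were compared per kilobase of the canonical transcript. In Cas9 control DMSO libraries B2M led with 46737 normalized counts per kb, followed by HLA-B (10291), HLA-C (5465) and HLA-E (1057). TAP2 (766), TAPBP (663), TAP1 (399) and NLRC5 (357) formed a lower tier, and HLA-F (14.9) was far below. The order of the first 4 was the same in HK3-null ATRA libraries, but B2M (39650 per kb) and HLA-B (37851) stood close together there, followed by HLA-C at 23365 and HLA-E at 7230. TAPBP, at 1893 per kb, was above TAP2 (596), TAP1 (444) and NLRC5 (324).

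Part of the sequence of these genes is shared with other genes. Of the 42-base stretches (the read length given in the methods for ATAC) of each canonical transcript, 23.5% of those of HLA-B, 10.4% of HLA-C, 8.14% of HLA-E and 37.7% of HLA-F also occur in transcripts of other genes. Those of HLA-B and HLA-C were shared with 12 and 11 genes, other class I genes and pseudogenes among them, and HLA-F shared with HLA-F-AS1 and RPL23AP1. TAP1 shared 21.9%, TAP2 35.4% and TAPBP 42.1%, while B2M and NLRC5 shared 0. Stretches were counted singly and on either strand, whereas the paper describes paired-end, directional sequencing. The shares are therefore not shares of reads that cannot be assigned. They leave the levels of the 7 genes on chromosome 6 uncertain to an extent that was not measured. TAP1 overlaps PSMB8-AS1 and TAPBP overlaps RGL2; whether counting used strand was not stated. Class I genes are also highly polymorphic, and counts against the reference alleles depend on how close the alleles of HL60 are to them.

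The chromosomes were then compared, since the rest of chromosome 6 and chromosome 15 also differed between the genotypes. Over 661 tested genes of chromosome 6 (members left out) the median log2 difference was 0.52 in DMSO and 0.57 in ATRA, with 81.1% of genes above 0 in DMSO. Over 430 genes of chromosome 15 it was -0.95 and -0.97, with 9.77% above 0. Chromosome 16, which holds NLRC5, stood at 0.012 and 0.0081 over 611 genes. Chromosomes 5, 8 and 13 also stood away from 0, at -0.75, 1.10 and -0.57 in DMSO, whereas the medians of the other 17 autosomes lay between -0.11 and 0.076. The heavy chain genes therefore lay on a chromosome whose genes were mostly higher, and B2M on one whose genes were mostly lower; copy number was not measured, and its part in these differences was not tested.

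**Figure D2:**
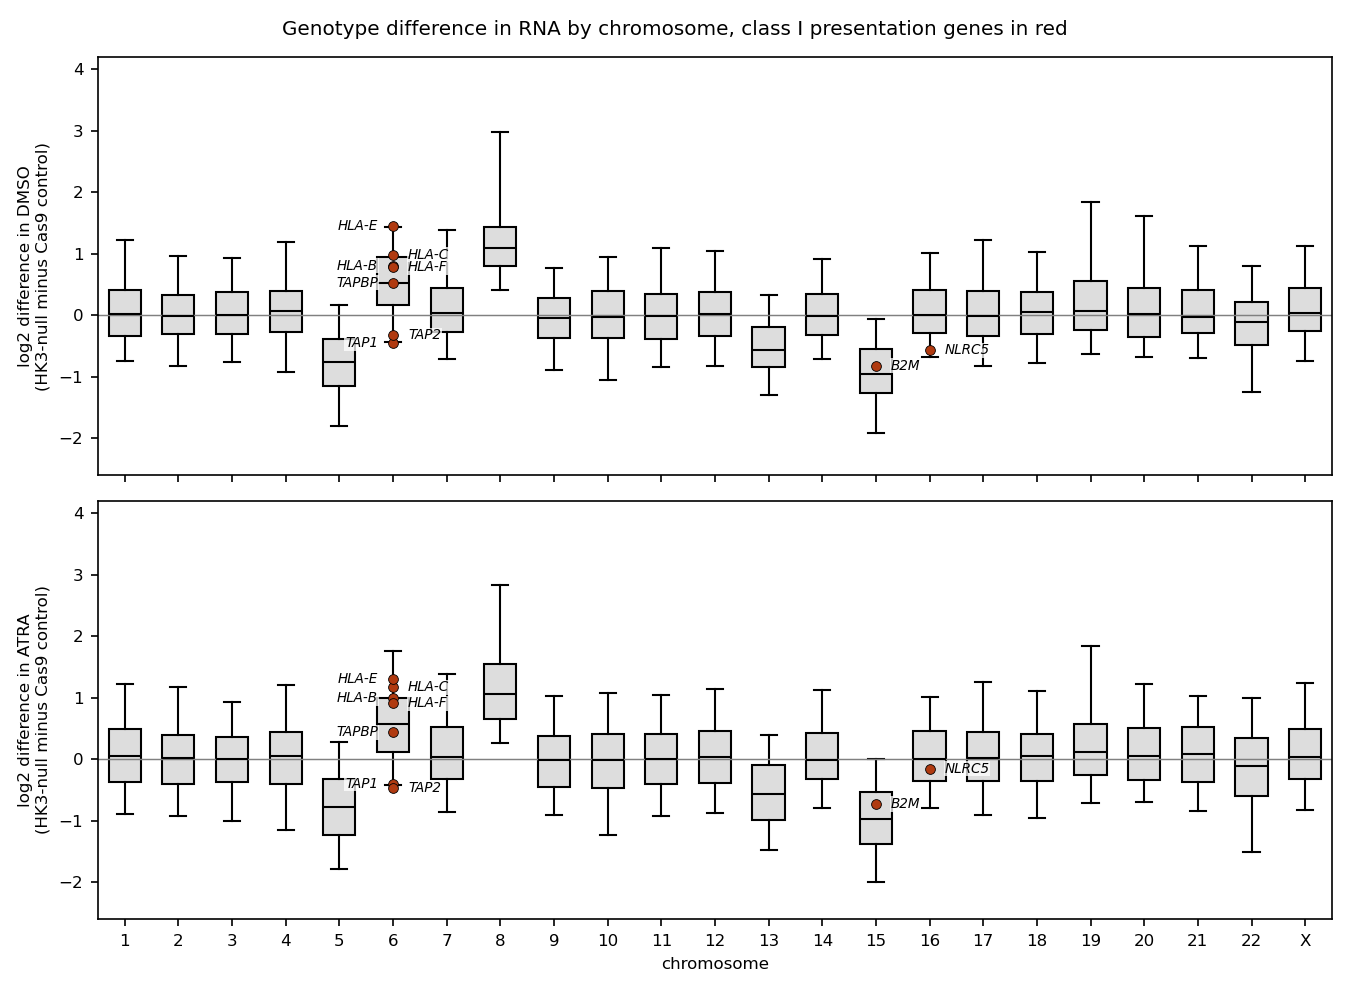
Log2 difference in RNA between HK3-null and Cas9 control libraries in DMSO (top) and ATRA (bottom) for all tested genes of each chromosome except the class I genes (boxes, quartiles with the median; whiskers, percentiles 10 to 90), with the 9 class I presentation genes as red points. HLA-E lies above the box of chromosome 6, TAP1 and TAP2 lie below it, and B2M lies inside the box of chromosome 15.

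After the median of the own chromosome was subtracted, 6 of the 9 genes passed in DMSO, 3 higher and 3 lower (49.7% of genes passed, 25.3% higher and 24.4% lower), and 7 in ATRA, 4 higher and 3 lower (55.6%, 27.3% and 28.3%). HLA-E stayed higher, at 0.94 in DMSO (adjusted p = 2.08e-07) and 0.73 in ATRA. HLA-C remained at 0.47 and 0.60, and HLA-B at 0.29 and 0.42, each past the threshold. HLA-F at 0.27 (adjusted p = 0.416) and 0.34 (0.288) did not pass. TAP1 and TAP2 stood further apart than before, at -0.97 and -0.84 in DMSO and at -0.97 and -1.03 in ATRA, the largest adjusted p among these 4 values being 6.07e-05. TAPBP, at 0.010 in DMSO (adjusted p = 0.871), was at the level of its chromosome. In ATRA TAPBP stood at -0.13 (adjusted p = 0.03), a call that did not hold without Cas9 control ATRA replicate 1 (0.105), 2 (0.0679) or 3 (0.0916) or without HK3-null ATRA replicate 2 (0.125) or 3 (0.123).

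B2M changed sign in this comparison. Its difference from the median of chromosome 15 was 0.13 in DMSO (adjusted p = 0.081; 0.0152 with the replicate block) and 0.24 in ATRA (adjusted p = 0.00373), where it stood at 0.11 (adjusted p = 0.114) with a pseudocount of 10. The DMSO value was 0.32 (adjusted p = 1.83e-05) under quantile normalization, 0.19 (0.0394) with no filter on low values and 0.00067 (0.9945) with a pseudocount of 10. In DMSO it passed when Cas9 control DMSO replicate 2 (adjusted p = 0.0379), HK3-null DMSO replicate 3 (0.0477) or HK3-null ATRA replicate 3 (0.0477) was left out. Of the 20 tested genes nearest to B2M, 11 had a lower log2 difference than B2M in DMSO and 13 in ATRA, around medians of -0.91 and -1.03. B2M thus sat at or slightly above the level of its neighbours. NLRC5, on an unshifted chromosome, kept its value at -0.58 in DMSO (adjusted p = 3.55e-05) and -0.16 in ATRA (adjusted p = 0.0647; 0.0233 with the block). Set against its 20 nearest genes, whose median was -0.22 in DMSO, NLRC5 stood at -0.345 (adjusted p = 0.00139) in DMSO and at -0.0998 (0.232) in ATRA.

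Within chromosome 6 the shift was broad. The stretch between 28 and 34 Mb, which holds the class I and class II genes, had 132 other tested genes with a median log2 difference of 0.50 in DMSO and quartiles of 0.10 and 0.98, close to the 0.52 of the whole chromosome. Bins of 10 Mb with at least 20 genes ranged from 0.24 to 0.69. The 20 genes nearest to HLA-E had a median of 0.44 and 18 of them lay below HLA-E. The neighbours of HLA-B and of HLA-C are largely shared and had a median of 0.72, with 11 and 12 genes below the member. Set against these neighbours instead of the whole chromosome, HLA-B no longer passed in DMSO (0.0859, adjusted p = 0.157) and TAPBP did (0.16, adjusted p = 0.0117). TAP1 and TAP2 had neighbours at a median of 0.20, of which 5 of 20 lay below either gene. Relative to their neighbours in DMSO, TAP1 stood at -0.65, TAP2 at -0.53 and HLA-C at 0.26. Each was a smaller difference than that from the whole chromosome and still passed. HLA-E, at 1.02, stood further away than from the whole chromosome.

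**Figure D3:**
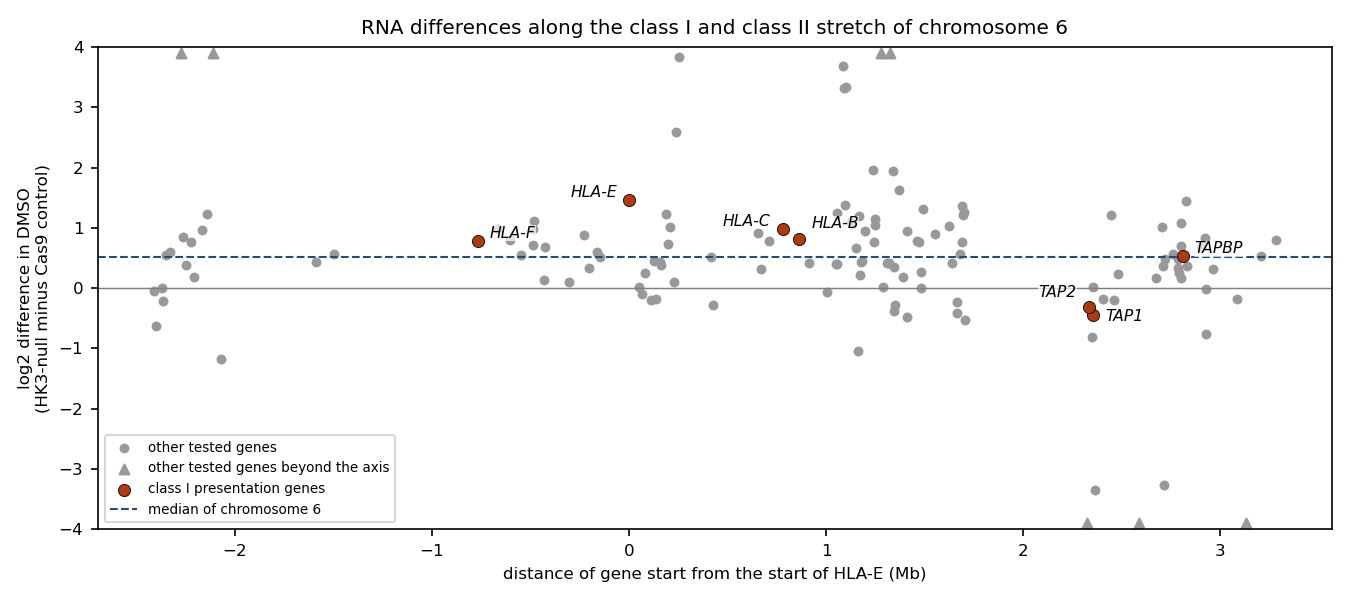
Log2 difference in RNA between HK3-null and Cas9 control libraries in DMSO for tested genes in the class I and class II stretch of chromosome 6, by the distance of their start from the start of HLA-E in Mb. Red points are the class I presentation genes, grey points the 132 other tested genes (triangles, 7 genes beyond the axis) and the dashed line the median of chromosome 6, 0.52; TAP1 and TAP2 lie below 0 while HLA-F, HLA-E, HLA-C, HLA-B and TAPBP lie on or above the line.

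ATRA raised most of the pathway in both genotypes. In Cas9 control libraries 7 of the 9 genes passed, all higher in ATRA (20.3% of all genes rose and 21.3% fell), and in HK3-null libraries 8 passed, all higher (24.0% rose, 25.1% fell), out of 41.6% and 49.0% that passed in either direction. At 2-fold, HLA-E and TAPBP were called in the control (6.84% of genes were called higher) and 4 genes in HK3-null libraries (8.06%). ATRA and DMSO libraries did not overlap for 7 of the 9 genes in the control (51.3% of all genes) and 8 in HK3-null libraries (58.6%). HLA-E rose by factors of 2.78 in the control and 2.49 in HK3-null libraries, TAPBP by 2.11 and 1.98, HLA-C by 1.90 and 2.16, and HLA-B by 1.85 and 2.10. B2M, at log2 differences of 0.49 and 0.58, and TAP1, at 0.54 and 0.59, rose by smaller amounts. TAP2 did not pass in either genotype, with log2 differences of 0.098 (adjusted p = 0.355) and -0.045 (adjusted p = 0.677), and its ATRA and DMSO libraries overlapped; under quantile normalization TAP2 passed in the control (0.20, adjusted p = 0.0321). HLA-F rose by 0.88 and 1.00 on the log2 scale; the control call did not hold under quantile normalization (0.54, adjusted p = 0.105), without Cas9 control ATRA replicate 3 (adjusted p = 0.0584) or without Cas9 control DMSO replicate 3 (0.0611). These comparisons share their libraries with those between the genotypes.

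NLRC5 was the member whose ATRA response differed between the genotypes. In Cas9 control libraries its level did not move beyond the spread (log2 difference 0.010, adjusted p = 0.924), whereas in HK3-null libraries it rose by 0.43 (adjusted p = 0.000315). The interaction, the genotype difference in ATRA minus that in DMSO, was 0.42 ± 0.096 SE (adjusted p = 0.0204); 9.12% of all genes passed this test. The call did not hold without HK3-null DMSO replicate 2 (0.39, adjusted p = 0.0569) or replicate 3 (0.39, adjusted p = 0.0516). The interaction of the other 8 genes lay between -0.16 and 0.18 and did not pass, HLA-B (0.18, adjusted p = 0.144) and HLA-C (0.18, adjusted p = 0.125) coming nearest. With the replicate block 2 genes passed, as HLA-B joined (adjusted p = 0.0434); without HK3-null ATRA replicate 3, 3 genes passed, as HLA-B (adjusted p = 0.0283) and HLA-C (0.0262) joined.

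ATAC-seq, in which the Tn5 transposase cuts open chromatin, gave 5 regions that listed a class I gene: 1 for NLRC5, 2 for B2M and 2 for HLA-E. None of them covered the start site of the gene they listed. The deposited regions were all at least 1.65-fold apart between the genotypes in ATRA, and 7576 of the 8286 were also at least 1.5-fold apart in DMSO. The regions were thus chosen for a difference between the same cells. Only the DMSO comparison, whose libraries differ from those of the ATRA comparison, was tested, and its calls are no independent sign of a genotype difference: 86.6% of the 6214 tested regions were called there at 1.5-fold (42.7% higher, 43.9% lower). The reference sequence at the centre of 2 of the regions is shown because these were called beside genes that differed in RNA, in opposite directions: 300 bases in intron 21 of NLRC5 at chr16:57045815-57046114 and 300 bases past the end of HLA-E at chr6:30496651-30496950, both on the plus strand of hg38, with matches to the same 6 motifs in capitals.
NLRC5 intron: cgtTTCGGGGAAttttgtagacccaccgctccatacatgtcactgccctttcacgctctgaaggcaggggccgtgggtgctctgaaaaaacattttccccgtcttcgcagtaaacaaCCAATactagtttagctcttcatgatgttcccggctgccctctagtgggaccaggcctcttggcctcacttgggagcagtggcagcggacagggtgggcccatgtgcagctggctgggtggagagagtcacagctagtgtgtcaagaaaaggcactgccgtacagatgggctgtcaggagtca
HLA-E downstream: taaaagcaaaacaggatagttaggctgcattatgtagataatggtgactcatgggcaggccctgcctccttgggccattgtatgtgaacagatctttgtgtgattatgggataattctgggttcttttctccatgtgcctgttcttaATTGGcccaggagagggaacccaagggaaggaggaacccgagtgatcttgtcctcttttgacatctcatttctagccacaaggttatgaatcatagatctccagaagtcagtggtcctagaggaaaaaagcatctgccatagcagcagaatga

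The NLRC5 window held 1 GAS match and 1 CCAAT match, motifs that 7.51% and 28.8% of 6209 other tested regions held in a window of this length. The HLA-E window held 1 CCAAT match. The NLRC5 region, chr16:57045783-57046148, is 56408 bases from the start site and had signals of 42.9 and 51.3 in the Cas9 control DMSO libraries and of 5.08 and 4.08 in HK3-null DMSO libraries. In ATRA the signals were 49.2 and 24.4 against 3.25 and 3.17. The site was open in every control library and close to closed in every HK3-null one. The log2 difference in DMSO was -3.11 ± 0.44 SE (adjusted p = 1.65e-07). In the separate RNA libraries NLRC5 was lower in DMSO, whereas in ATRA its difference of -0.15 did not pass.

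Both B2M regions were less open in the HK3-null libraries. The region in intron 1 also lists PATL2. Its signals were 78.0 and 126.0 against 37.1 and 48.8 in DMSO, and 142.8 and 77.2 against 38.8 and 36.5 in ATRA. The log2 difference in DMSO was -1.20 ± 0.32 SE (adjusted p = 0.000993). The region 1519 bases past the end, chr15:44719321-44720008, had 27.2 and 24.4 against 16 and 10.95 in DMSO (log2 difference -0.91 ± 0.40 SE, adjusted p = 0.0335), and 48.2 and 28.05 against 9.14 and 17.5 in ATRA.

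Past HLA-E the direction was the opposite. The region 2607 bases past the transcript end, chr6:30496560-30497043, had 34.2 and 26.8 against 59.5 and 64.3 in DMSO (log2 difference 1.01 ± 0.32 SE, adjusted p = 0.0041), and 23.6 and 22.1 against 59.4 and 62.3 in ATRA. A second region 9367 bases past the end, chr6:30503364-30503758, had 28.9 and 26.9 against 31.5 and 38.2 in DMSO and was not called (log2 difference 0.30, adjusted p = 0.419). In ATRA its signals were 15.6 and 8.75 against 33.8 and 47.2. Cas9 control ATRA replicate 2 had a low mean signal over all regions, 29.5 against 41.7 to 47.1 in the other 7 libraries.

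**Figure D4:**
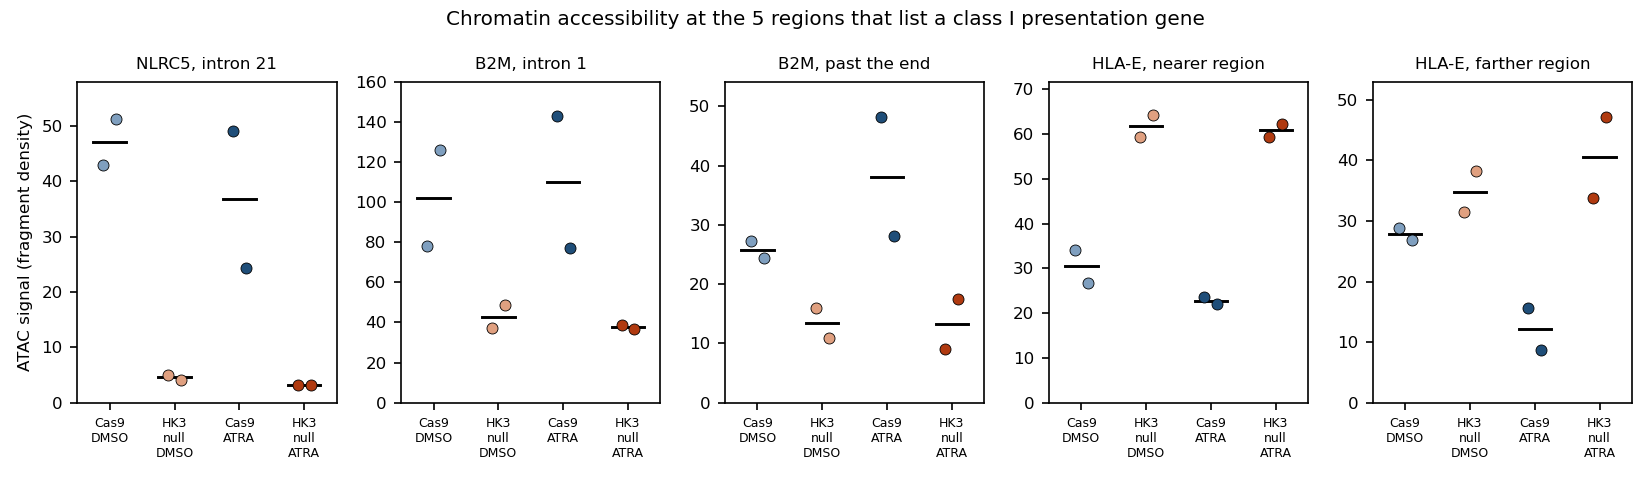
ATAC signal (fragment density in the region) in each library (points, 2 per group) and its mean (bar) for the 5 regions that list a class I presentation gene; axes start at 0. The NLRC5 region stands at 3.17 to 5.08 in the 4 HK3-null libraries and at 24.4 to 51.3 in the 4 controls.

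In all, 4 of the 5 regions were called in DMSO, 1 higher and 3 lower, a share near the 86.6% of all regions. Regions of chromosome 6 had a median log2 difference of 1.06 (539 regions, 88.7% above 0), those of chromosome 15 of -1.54 (454 regions, 3.08% above 0) and those of chromosome 16 of -0.10 (138 regions). The other 17 autosomes ranged from -1.34 to 0.89, so in these selected regions medians far from 0 also occurred on chromosomes whose RNA median was near 0. Between 28 and 34 Mb of chromosome 6, 39 of 51 regions lay above 0, with a median of 0.82. With the chromosome median subtracted, the nearer HLA-E region stood at -0.056 (adjusted p = 0.90) and the B2M regions at 0.34 (adjusted p = 0.399) and 0.63 (0.188). Of the 5 regions only that of NLRC5 was still called, at -3.00 (adjusted p = 3.36e-07). This count cannot single out the NLRC5 region, because all regions had been chosen for a genotype difference. The subtraction removed a large shared shift on chromosomes 6 and 15 but almost nothing on chromosome 16, whose median was -0.10. The share of all regions still called after the subtraction is not given. Only 1 region was called without Cas9 control DMSO replicate 2 and only 2 without HK3-null DMSO replicate 2, with NLRC5 among them each time, and 3 without Cas9 control DMSO replicate 1. In these fits 1 library stands for its group and is assumed to vary like the other groups, and the share of all regions called in them is not given.

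The listed genes of peptide supply were lower almost throughout. The list held immunoproteasome subunits, proteasome activators and trimming peptidases, and no constitutive proteasome subunit. Of its 13 genes, 12 had lower RNA in HK3-null libraries in DMSO and 12 in ATRA (27.1% and 29.5% of all tested genes did), and none was higher (medians -0.38 and -0.68). PSMB9, the immunoproteasome subunit encoded beside TAP1, had 511 ± 29.2 (SD, n = 3) counts in the control and 50.3 ± 4.04 in HK3-null DMSO libraries (log2 difference -3.35, adjusted p = 2.38e-10), and 1698 ± 20.95 against 421 ± 29.7 in ATRA. It lies on chromosome 6, whose median was above 0. ERAP2 and ERAP1, the endoplasmic reticulum peptidases that trim class I peptides, lie on chromosome 5, whose median was -0.75. A further lower gene of the list also lies on chromosome 5, and another on chromosome 13, whose median was -0.57. The counts of this list were not set against the median of each gene's own chromosome. ERAP2 had 3455 ± 69.2 against 926 ± 47.5 in DMSO and 8214 ± 312 against 2187 ± 115 in ATRA; ERAP1 differed by -0.91 and -1.19 on the log2 scale.

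Of 12 genes of peptide loading and folding, 8 were lower in DMSO (27.1% of all tested genes), while in ATRA 4 were lower and 2 higher (29.5% and 29.6% of all genes), a lower share near that of all genes. PDIA3, the disulphide isomerase of the loading complex (chromosome 15), had 17999 ± 1093 against 7976 ± 267 in DMSO (log2 difference -1.17, adjusted p = 1.19e-07) and differed by -0.71 in ATRA. CANX, the lectin chaperone calnexin (chromosome 5), differed by -0.64 and -0.63. HSPA5, the lumenal HSP70 chaperone, was lower in DMSO (-0.84, adjusted p = 1.65e-07) and higher in ATRA (0.26, adjusted p = 0.00147). HM13, which cleaves signal peptides in the membrane, differed by -0.26 in ATRA (adjusted p = 0.000583).

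Other class I and class I-like genes leaned the other way. Of 13, 7 were tested. In DMSO 4 were higher and 1 lower, where 27.9% of all tested genes were higher and 27.1% lower. In ATRA 5 were higher and none lower, against 29.6% and 29.5% of all genes. Of these 7 genes, 4 lie on chromosome 6, whose median was 0.52 in DMSO and 0.57 in ATRA. FCGRT, the neonatal Fc receptor, which also pairs with B2M, had 8.67 ± 9.87 counts in the control and 243 ± 7.02 in HK3-null DMSO libraries, and 57.3 ± 11.7 against 1660 ± 101 in ATRA (log2 difference 4.87, adjusted p = 3.44e-05). MR1, which presents vitamin B metabolites, differed by 1.22 and 1.02. CD1D, which presents lipids, was lower in DMSO (-1.15, adjusted p = 0.00321) and stood at 0.51 in ATRA without passing (adjusted p = 0.115). HLA-G had 104 ± 6.08 against 228 ± 10.7 in ATRA (1.13, adjusted p = 5.59e-06).

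The counts of the regulators were nearer to those of all genes. Among 26 genes of class I transcription and interferon signalling, 9 were higher and 5 lower in DMSO, and 12 higher and 6 lower in ATRA, with medians of 0.033 and 0.22; of all tested genes 27.9% were higher and 27.1% lower in DMSO, and 29.6% and 29.5% in ATRA. IRF1, an interferon-induced activator of class I genes on chromosome 5, had 818 ± 61.1 against 372 ± 34.5 counts in DMSO (log2 difference -1.14, adjusted p = 2.75e-06) and 4723 ± 399 against 2979 ± 344 in ATRA. IRF8 was higher in DMSO (1.498, adjusted p = 0.00108) and lower in ATRA (-1.90, adjusted p = 0.000165). SOCS1, an inhibitor of cytokine signalling, differed by 1.93 and 2.04, from low counts in DMSO (7.33 ± 3.51 against 27.7 ± 12.6). IFNGR1, the ligand-binding chain of the interferon gamma receptor on chromosome 6, had 1807 ± 159 against 4865 ± 298 in ATRA (1.43, adjusted p = 8.43e-08).

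Of 36 tested interferon-stimulated genes, 15 were lower and 3 higher in DMSO, and 25 lower and 7 higher in ATRA, with medians of -0.53 and -1.20. Of all tested genes 27.1% were lower and 27.9% higher in DMSO, and 29.5% and 29.6% in ATRA. PSMB8 and PSMB9 are in this list as well as among the peptide supply genes. Genes that were lower included LGALS3BP (586 ± 60.1 against 6.67 ± 2.52 in DMSO and 2441 ± 93.9 against 85.7 ± 15.5 in ATRA), OAS3 (521 ± 53.9 against 12 ± 5.29 in DMSO) and OAS1 (232 ± 36.3 against 15.7 ± 3.06 in ATRA). XAF1 went the other way in DMSO, from 3.33 ± 1.15 to 154 ± 10.5. IFIT1 had 99.3 ± 17.6 against 1.33 ± 0.577 in ATRA. The heavy chain genes, which interferon can also raise, were higher in the same libraries. They lie on chromosome 6, whose median was 0.52 in DMSO and 0.57 in ATRA. The part of interferon signalling in these differences was not tested.

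**Figure D5:**
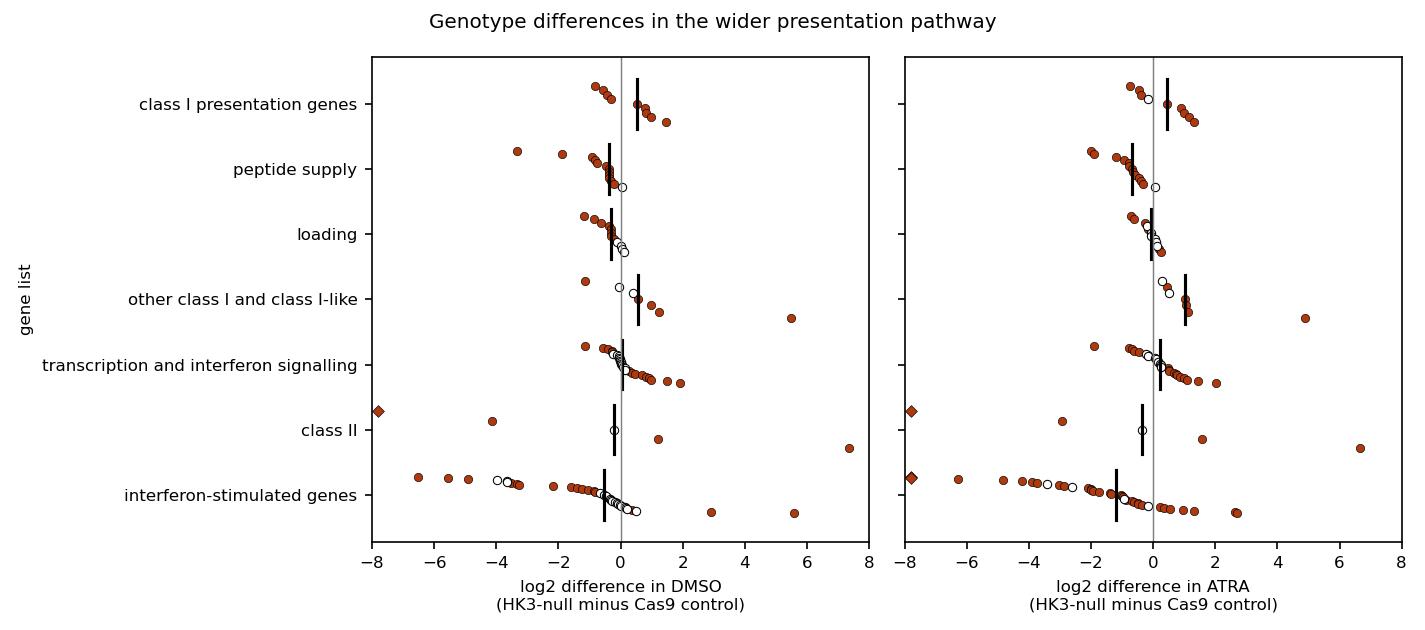
Log2 difference in RNA between HK3-null and Cas9 control libraries in DMSO (left) and ATRA (right) for the 9 class I presentation genes and 6 further gene lists; filled points passed at adjusted p under 0.05, open points did not, bars are list medians and diamonds lie beyond the axis. In DMSO 12 of 13 peptide supply genes are filled and below 0. Values of genes with counts of 0 depend on how 0 was written in the deposited log2 data.

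Class II genes were at low counts, apart from CD74 in HK3-null libraries. Of 12, 5 were tested, with 2 higher and 2 lower in each treatment. Of all tested genes 27.9% were higher and 27.1% lower in DMSO, and 29.6% and 29.5% in ATRA. CD74, the invariant chain of class II, had 7 ± 9.54 against 539 ± 38.4 counts in DMSO and 4.67 ± 0.577 against 466 ± 49.0 in ATRA. HLA-DPB1 had 57.7 ± 2.31 against 0.667 ± 1.15 in DMSO and 55.3 ± 5.13 against 0.333 ± 0.577 in ATRA, at or below the level at which a fold change can be given.

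The patterns over the 12 libraries fell into groups. As a description over 12 libraries of 4 groups, Pearson's r with the mean pattern of the 4 heavy chains was 0.94 for TAPBP, 0.14 for TAP1, -0.16 for B2M, -0.18 for NLRC5 and -0.57 for TAP2. B2M, by contrast, had r of 0.86 with NLRC5 and 0.85 with TAP1. Of 10658 genes compared, those most like the heavy chain pattern were TMEM71 (chromosome 8, r = 0.9965), TIMELESS and PTPN6 (chromosome 12), CHI3L1 (chromosome 1) and HLA-H, a class I pseudogene on chromosome 6. Those most like B2M were ADPGK (chromosome 15, r = 0.9933), ERAP2 and GAPT (chromosome 5), USP44 (chromosome 12) and SNAP23 (chromosome 15). All points share the same libraries and their group structure.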

How the data were processed

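RNA and ATAC libraries of HL60 cells were grouped by genotype and treatment from the labels. For RNA, the authors deposited log2 values that return whole numbers, read here as rounded normalized counts (the submitters' processing notes name DESeq2) (0 written as the log2 of 0.001); the methods text calls the values RPKM, and no raw counts were used here. No count model was run. Gaps among the rounded values give an estimated 22700000 to 37000000 counts per library. Reads were mapped to GRCh38; no source names the RNA aligner or counter. 330 rows without a gene name (at most 0.00926% of counts) were left out. For ATAC, the authors deposited signal values, fragment density after BWA mapping, duplicate removal, MACS2 peak calling and down-sampling to the smallest library, over regions merged across samples.

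Genes with a mean log2 value above 3 in a group (13256) were tested with limma 3.58.1 (R 4.3.3; trend, 1 mean per group, 12 libraries), and a gene passed at a Benjamini-Hochberg adjusted p under 0.05 over all genes. Regions with a mean signal above 17.1 (6214) were tested as log2(signal + 1). For the comparison with the own chromosome, the median difference of its other tested genes was subtracted as a fixed value. The members, gene lists and tests were chosen with earlier results of these data known. All 9 members and 5 regions were named, and from each further list at most 3 genes per genotype comparison with the largest difference among those that passed at a group mean of at least 50; some items are not reported here. Scripts were tested on simulated data. Same-numbered RNA libraries deviated together (18 pairs, r 0.178 to 0.632; 36 pairs of different numbers, -0.643 to 0.286), so fits with the replicate number as a block are given where they change a call. Alternatives were quantile scaling, pseudocounts of 1 and 10 (ATAC: 10), other filters, no trend, only the groups compared, a fold of 2, the 20 nearest genes or the ATAC chromosome median as reference, and each library left out.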

Additional observations from a re-analysis of the deposited data

Results flagged for a closer look

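The genotype difference of NLRC5 was not the same in the 2 treatments: the HK3-null against Cas9 control log2 difference was -0.15 in ATRA and -0.57 in DMSO, a difference of 0.42 ± 0.096 SE (limma, adjusted p = 0.0204). NLRC5 was the 1 member of 9 that passed this test, a share near the 9.12% of all genes that did. NLRC5 libraries labelled HK3-null stood at 1750, 1583 and 1570 counts in DMSO and 2357, 2011 and 2224 in ATRA. Over the alternatives tried the adjusted p lay between 0.00394 and 0.0569. It passed the threshold in all but the fits without HK3-null DMSO replicate 2 and without replicate 3. Groups of 2 and 3 libraries were too small to test single libraries for standing apart.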

How the results depend on the processing

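Of 1349 values of single genes or regions under an alternative, 1284 kept their direction and side of the threshold, 30 lost the call, 17 gained it and 18 changed sign. HLA-B, HLA-C, HLA-E and B2M kept their genotype calls in DMSO and ATRA under all 20 alternatives run for each, with log2 differences of 0.79 to 0.98 (HLA-B), 0.96 to 1.07 (HLA-C), 1.41 to 1.49 (HLA-E) and -0.85 to -0.68 (B2M) in DMSO. At a fold of 2 as well, 1 of 9 genes was called between genotypes in DMSO and 2 in ATRA, and 2 and 4 between treatments in Cas9 control and HK3-null libraries. With the replicate block 2 members passed the interaction test (2898 genes over all, against 1209); it also brought NLRC5 in ATRA (adjusted p = 0.0282) and, relative to the chromosome, B2M in DMSO (0.0152) and NLRC5 in ATRA (0.0233) past the threshold and changed no other call. The ATAC replicate numbers did not pair the samples (r at most 0.0539), and the replicate block left the count at 4. Leaving out single libraries gave 0 to 3 members in the interaction test and 1 to 4 ATAC regions. With the chromosome median subtracted 1 ATAC region was called, a count without a share of all regions to set it against. The B2M regions turned to 0.34 and 0.63 and the HLA-E regions to -0.056 and -0.76, which follows from the medians of chromosomes 15 and 6. Quantile normalization turned the interaction of B2M (-0.066), HLA-B (-0.014) and HLA-C (-0.0375), none of which passed; the cause was not tested. TAPBP relative to its chromosome in DMSO turned to -0.025 with a filter at 5. Leaving out single libraries moved it between -0.032 and 0.055, NLRC5 under ATRA in the control between -0.024 and 0.046, TAP2 under ATRA in HK3-null libraries between -0.11 and 0.042, and the interactions of TAP1 between -0.0949 and 0.14 and of HLA-F between -0.12 and 0.37. HLA-F lost its DMSO call under quantile normalization (adjusted p = 0.0582) and in the fit of the 6 DMSO libraries (0.0714). Counts near 20, as for HLA-F, and 2 ATAC libraries per group limit the precision.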

Other observations

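The light chain and the heavy chains changed places in RNA level per kilobase. The ratio of B2M to the sum of HLA-B, HLA-C, HLA-E and HLA-F, each per kilobase of transcript, was 2.77, 2.97 and 2.60 in the Cas9 control DMSO libraries and 0.825, 0.848 and 0.826 in the DMSO libraries labelled HK3-null. In ATRA the ratio was 2.12, 2.01 and 1.96 against 0.577, 0.578 and 0.581. B2M exceeded the summed heavy chains in every control library and was below them in every HK3-null library. The ratio was also lower in ATRA than in DMSO within each genotype (2.03 ± 0.0841 against 2.78 ± 0.185 in the control and 0.579 ± 0.00223 against 0.833 ± 0.013 in HK3-null libraries, SD, n = 3). A two-sided exact permutation test gave p = 0.1 for each of these 4 comparisons, the smallest p that 3 against 3 libraries allow. The sum covers only these 4 chains, and RNA levels do not give protein levels. The ratio depends on the transcript lengths used (943 bases for B2M and 1536 for HLA-B), and heavy chain sequence is partly shared between genes. The chromosomes of these genes also differed between the genotypes. Their median log2 differences in DMSO were -0.95 for chromosome 15 and 0.52 for chromosome 6. The part of these shifts in the ratio was not tested.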
